A study of Homo sapiens with 14 samples.

Results

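Expression of 10 genes of the S100 family was followed through TAp73β induction in a hepatocellular carcinoma cell line. They were S100A2, S100A3, S100A4, S100A6, S100A10, S100A11, S100A13, S100A14, S100A16 and S100P, 10 of the 19775 genes measured, found by their symbols in the annotation of the array. These genes were chosen with their Dox+ minus Dox− differences known, so those differences are given below as a description and carry no test. In Dox+ cells S100A2 exceeded its Dox− level 32.4-fold after 12 h of induction, 63.2-fold after 24 h and 46.3-fold after 48 h. At 48 h S100A4 was 2.44-fold and S100A11 2.39-fold higher, 5 further members were higher by smaller amounts, and S100A10 and S100P were lower.

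S100 proteins are small calcium sensors of the EF-hand type that mostly act as dimers. On binding calcium most of them expose a surface that takes hold of other proteins, among them annexins and myosin, and several are also released from cells and bind receptors such as RAGE. Most of the human genes lie in a cluster on the long arm of chromosome 1, beside the genes of the epidermal cornified envelope, whereas S100P lies on chromosome 4. Several are known in liver cancer for altered expression, and S100A2 is known elsewhere as a gene of basal and squamous epithelium.

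RNA came from Hep3BTAp73β cells, a derivative of the hepatocellular carcinoma line Hep3B where an introduced TAp73β is driven by a doxycycline-inducible system. Dox+ cells received 1 µg/mL doxycycline for one of the 3 times, 12 h, 24 h or 48 h, and Dox− cells were the same line without doxycycline, collected at the same times. Each treatment had 2 biological replicates after 12 h, 2 after 24 h and 3 after 48 h, on 14 Affymetrix U133 Plus 2.0 arrays. A Dox− culture of the parental line, or a line given doxycycline without the construct, was not analysed here, so the effects of the drug and of TAp73β cannot be told apart. All values are log2 expression as deposited, and a difference of 1 is a 2-fold change.

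The most strongly hybridising TP73 probe set lay between 7.89 and 8.30 in Dox+ cells, against 5.82 to 6.08 in Dox− cells. Its log2 differences were 1.89, 2.27 and 1.96 at the 3 times. A second, dimmer TP73 probe set differed by 0.42, 0.77 and 0.72, and another by 0.70, 0.82 and 1.17. Neither of these passed at 12 h (limma adjusted p = 0.452 and 0.378), and the latter did not at 24 h (adjusted p = 0.107). ALB, the serum albumin gene that marks hepatocytes, spanned 14.30 to 14.40 in Dox+ and 14.33 to 14.44 in Dox− cells, close to the highest value on each array, 14.48 to 14.56. Of the 8 measured hepatocyte markers limma called 5 lower and 1 higher in Dox+ cells at 48 h, with a median difference of -0.41 beside -0.02 over all genes. APOA1, an apolipoprotein, fell by 0.86 (adjusted p = 1.69e-05) and TTR, or transthyretin, by 0.82 (adjusted p = 1.11e-04), AFP, TF and FGB fell by smaller amounts, and SERPINA1 rose by 0.54 (adjusted p = 1.44e-04). The mean of the 8 was 11.39 to 11.64 on Dox+ arrays and 11.60 to 11.81 on Dox− arrays. The leukocyte gene PTPRC stayed between 3.44 and 3.88 on Dox+ arrays and did not exceed 3.80 on Dox− arrays. Of the 5 leukocyte markers ITGAM was higher in Dox+ cells (5.86 to 7.28, against 4.93 to 5.20 in Dox− cells), and LYZ was lower at 48 h (log2 difference -0.92, limma adjusted p = 5.24e-05). The mean of the 5 was 6.67 to 6.98 on Dox+ arrays and 6.49 to 6.70 on Dox− arrays. The keratinocyte markers KRT14 and DSG3 reached at most 4.23 and 4.43 in Dox+ cells, against 4.32 and 4.71 in Dox− cells. KRT5 measured 5.01 to 5.66 in Dox+ and 4.74 to 5.33 in Dox− cells and was called higher at 48 h (0.30, limma adjusted p = 0.0308), and the mean of the 3 measured keratinocyte markers was 4.22 to 4.72 on Dox+ arrays and 4.23 to 4.72 on Dox− arrays. The part of these markers in the results below was not tested. The root mean square SD between arrays of a group, taken over all genes, was 0.196 in Dox+ and 0.209 in Dox− cells after 12 h, 0.15 and 0.184 after 24 h, then 0.111 and 0.105 after 48 h.

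Promoter sequences are printed for the 3 members that differed by at least 2-fold at 48 h. The windows run from 250 bases before to 50 bases after a transcription start of RefSeq (GRCh38.p14), are written 5′ to 3′ along the gene, and lie on the minus strand of chromosome 1 at chr1:153565795-153566094 for S100A2, chr1:153545757-153546056 for S100A4 and chr1:152036955-152037254 for S100A11. Capitals mark the AP-1 motif TGANTCA in S100A2 and the TATA box TATAAA in S100A4, and the S100A11 window held neither.
S100A2: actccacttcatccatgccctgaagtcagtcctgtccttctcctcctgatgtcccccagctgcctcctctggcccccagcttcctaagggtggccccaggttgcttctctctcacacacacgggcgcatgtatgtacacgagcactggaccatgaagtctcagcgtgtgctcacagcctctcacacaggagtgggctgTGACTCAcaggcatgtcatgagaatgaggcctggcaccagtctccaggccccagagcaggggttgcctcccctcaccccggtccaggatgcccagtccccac
S100A4: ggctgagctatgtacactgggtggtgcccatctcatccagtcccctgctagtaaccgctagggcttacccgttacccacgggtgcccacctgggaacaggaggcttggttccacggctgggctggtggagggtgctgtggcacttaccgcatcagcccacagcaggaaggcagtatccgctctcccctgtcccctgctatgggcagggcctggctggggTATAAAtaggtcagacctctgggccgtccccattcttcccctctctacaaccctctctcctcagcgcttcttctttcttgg
S100A11: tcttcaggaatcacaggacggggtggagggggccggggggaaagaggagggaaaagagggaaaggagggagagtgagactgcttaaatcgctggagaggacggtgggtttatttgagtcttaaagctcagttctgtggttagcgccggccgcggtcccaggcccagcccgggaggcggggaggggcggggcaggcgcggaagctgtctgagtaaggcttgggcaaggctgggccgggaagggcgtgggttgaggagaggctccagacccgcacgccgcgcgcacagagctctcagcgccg
The 10 members had 14 such windows, because S100A2 and S100A16 have a second start and S100A13 has 3. The AP-1 motif, searched on both strands, was found in 2 members, at position -52 of S100A2 and -225 of S100A3 from the start site, and in 7.71% of all 35116 promoters of the same length. TATAAA on the gene's own strand was found in 3 members, at -31 in S100A4, -29 in the second window of S100A13 and -28 in S100P, against 7.33% of all promoters. GGGCGG, the Sp1 core, was in the windows of 6 members and in 45.0% of all promoters, and CCAAT in 3 members and 34.6%, both searched on both strands. For each motif a member was counted if any of its windows held it, whereas the share over all promoters is per window. The member counts and these shares are therefore unlike measures. The S100A2 window printed here held 5 CpG dinucleotides and that of S100A11 22, beside a median of 14 over all promoters.

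S100A2 had by far the widest separation of the 10. On the Dox+ arrays it measured 13.00 and 12.87 after 12 h, 13.34 and 13.36 after 24 h, and 13.48, 13.56 and 13.57 after 48 h. On the Dox− arrays it measured 7.55 and 8.28 after 12 h, 7.33 and 7.40 after 24 h, and 7.92, 8.04 and 8.07 after 48 h. No Dox+ array came near a Dox− array at any time, and the Dox− arrays at 12 h were the only pair that lay far apart. The log2 difference was 5.02 ± 0.24 after 12 h, 5.98 ± 0.13 after 24 h and 5.53 ± 0.06 after 48 h (± SE from limma), in place 1 of the 19775 genes at each time.

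**Figure D1:**
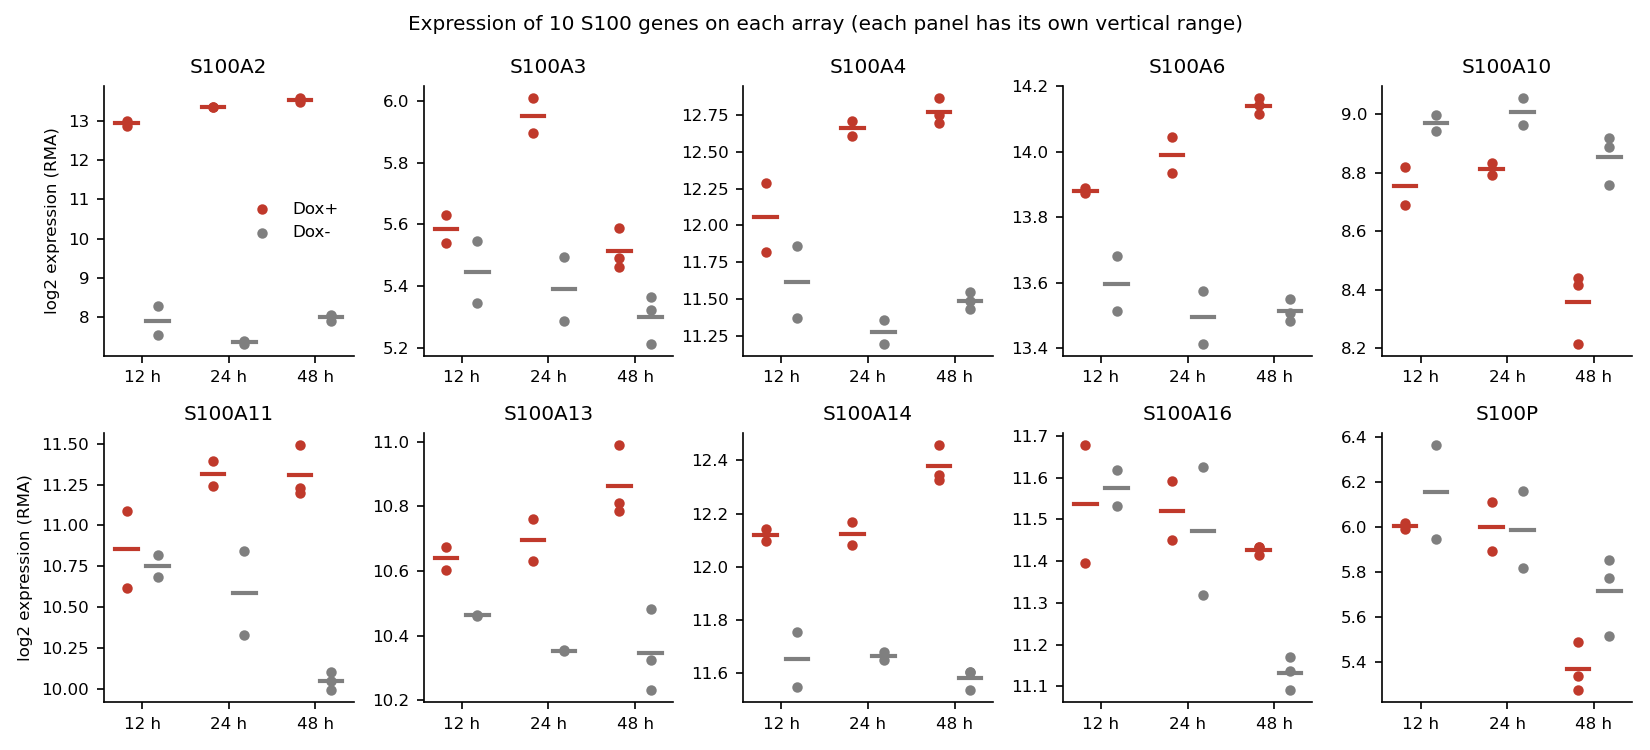
Log2 expression of the 10 S100 genes on each array of the 3 times, with points for arrays, bars for group means, Dox+ in red and Dox− in grey, and a separate vertical range for each gene. At 48 h the Dox+ arrays lie above the Dox− arrays in 8 genes and below them in S100A10 and S100P.

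S100A4, which binds non-muscle myosin IIA and is known for its part in cell motility and metastasis, overlapped between treatments at 12 h and separated later. It measured 11.82 and 12.29 in Dox+ cells after 12 h, 12.61 and 12.71 after 24 h, and 12.75, 12.70 and 12.86 after 48 h. In Dox− cells it measured 11.37 and 11.86 after 12 h, 11.36 and 11.20 after 24 h, and 11.43, 11.55 and 11.48 after 48 h. The 12 h arrays of either treatment were spread by about as much as the treatments differed, and from 24 h on the lowest Dox+ array exceeded the highest Dox− array by a wide margin. The differences were 0.44 ± 0.22, 1.38 ± 0.13 and 1.28 ± 0.07 (± SE) at the 3 times, and the first was 0.19 without replicate 1 and 0.68 without replicate 2 of Dox− cells, and 0.67 and 0.20 without those of Dox+ cells. In the order of all genes by their difference, S100A4 stood at place 1203 after 12 h, 99 after 24 h and 191 after 48 h. Its probe set is of the _s_at type, which can match several transcripts.

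S100A11, a partner of annexin A1 known from keratinocyte differentiation, was the member whose difference grew most between 12 h and 48 h. Its Dox+ arrays measured 11.09 and 10.62 after 12 h, 11.24 and 11.39 after 24 h, and 11.23, 11.20 and 11.49 after 48 h. Its Dox− arrays measured 10.82 and 10.68 after 12 h, 10.33 and 10.85 after 24 h, and 10.00, 10.05 and 10.10 after 48 h. The treatments overlapped at 12 h and not afterwards, and its lowest values were those of Dox− cells at 48 h. The differences were 0.10 ± 0.19, 0.73 ± 0.18 and 1.26 ± 0.08 (± SE) at the 3 times. With an array left out they lay between -0.14 (without replicate 1 of Dox+ cells) and 0.34 (without replicate 2) at 12 h, and between 0.47 (without replicate 1 of Dox− cells) and 0.98 (without replicate 2) at 24 h. The change of the difference over time was not tested, since it rests on the values by which the genes were chosen.

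S100A14, a protein of epithelial cells that pairs with S100A16, was higher in Dox+ cells at each time, with no overlap. It measured 12.14 and 12.10 in Dox+ against 11.75 and 11.55 in Dox− cells after 12 h, and 12.08 and 12.17 against 11.65 and 11.68 after 24 h. At 48 h it measured 12.33, 12.35 and 12.46 in Dox+ cells, against 11.54, 11.61 and 11.60 in Dox− cells. The difference was 0.47 ± 0.15 after 12 h, 0.46 ± 0.13 after 24 h and 0.79 ± 0.06 after 48 h (± SE), a 1.73-fold difference at the last time.

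S100A6, also called calcyclin, measured 13.87 and 13.89 in Dox+ against 13.51 and 13.68 in Dox− cells after 12 h, and 13.93 and 14.04 against 13.58 and 13.41 after 24 h. At 48 h it measured 14.12, 14.14 and 14.16 in Dox+ and 13.51, 13.48 and 13.55 in Dox− cells. The treatments did not overlap at any time, and the differences were 0.28 ± 0.15, 0.49 ± 0.13 and 0.63 ± 0.06 (± SE). These signals lay close to the highest value on each array, 14.48 to 14.56, and the effect of this on the measured difference was not tested. A second and much dimmer S100A6 probe set gave differences of 1.19 after 12 h, 0.48 after 24 h and 1.29 after 48 h.

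S100A13, which takes part in the release of FGF1 from cells, measured 10.60 and 10.68 in Dox+ against 10.46 and 10.46 in Dox− cells after 12 h, and 10.63 and 10.76 against 10.35 and 10.35 after 24 h. At 48 h the Dox+ arrays measured 10.79, 10.81 and 10.99 and the Dox− arrays 10.23, 10.32 and 10.48. The differences of 0.18 ± 0.14, 0.34 ± 0.13 and 0.52 ± 0.08 (± SE) were smaller than those of S100A6, though the arrays did not overlap at any time. Its second probe set, which was dimmer, gave -0.26 after 12 h, 0.68 after 24 h and -0.06 after 48 h, so that the probe sets differed in sign at 12 h and at 48 h.

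S100A16 and S100A3 differed least among the members that were higher at 48 h. S100A16, a broadly expressed member, measured 11.43, 11.42 and 11.43 in Dox+ cells against 11.09, 11.17 and 11.14 in Dox− cells at 48 h. Its differences were -0.04 ± 0.16 at 12 h and 0.05 ± 0.15 at 24 h, where the arrays overlapped, and 0.30 ± 0.06 at 48 h (± SE). S100A3, a zinc-binding protein of the hair cuticle, measured 6.01 and 5.90 in Dox+ cells at 24 h against 5.29 and 5.50 in Dox− cells. At 48 h it measured 5.46, 5.59 and 5.49 in Dox+ and 5.21, 5.32 and 5.36 in Dox− cells. The differences of S100A3 were 0.14 ± 0.15, 0.56 ± 0.14 and 0.21 ± 0.07 (± SE), and its arrays overlapped at 12 h only. They all lay below the mean level of the median gene, 6.492, and the part of this low signal was not tested.

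S100A10 and S100P were the members with lower levels in Dox+ cells at 48 h. S100A10, or p11, which forms a complex with annexin A2 and does not need calcium to bind it, measured 8.69 and 8.82 in Dox+ against 8.94 and 8.997 in Dox− cells after 12 h, and 8.79 and 8.83 against 8.96 and 9.05 after 24 h. At 48 h it measured 8.22, 8.44 and 8.42 in Dox+ and 8.76, 8.89 and 8.92 in Dox− cells. No array of one treatment overlapped the other, and the differences were -0.22 ± 0.15, -0.19 ± 0.13 and -0.50 ± 0.08 (± SE). A second S100A10 probe set, at 3.87 to 4.16 in the group means of Dox+ cells and 3.82 to 4.07 in those of Dox− cells, overlapped at each time, with differences of 0.24, 0.09 and -0.09.

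S100P, first found in placenta and known as a binder of ezrin and IQGAP1, measured 5.34, 5.49 and 5.27 in Dox+ cells at 48 h against 5.77, 5.51 and 5.85 in Dox− cells. The highest Dox+ array and the lowest Dox− array were nearly level, and at 12 h and 24 h the treatments overlapped. Its differences were -0.15 ± 0.18, 0.01 ± 0.16 and -0.35 ± 0.10 (± SE). All arrays of S100P lay below the mean level of the median gene, 6.492, and the part of this low signal was not tested.

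Counted over the 10 members, all Dox+ arrays lay above all Dox− arrays in 4 after 12 h, 7 after 24 h and 8 after 48 h, where 19.3%, 26.6% and 17.4% of all genes did so. They lay below in 1, 1 and 2 members, where 27.6%, 23.7% and 21.9% of all genes did so. Of all genes, limma called 0.647%, 3.01% and 11.3% higher at an adjusted p under 0.05 at the 3 times. It called 0.0202%, 2.81% and 12.9% of them lower. Such calls are not given for the members. Since the members were chosen on this contrast, nothing is read from the counts of members. The median difference of the members was 0.16, 0.48 and 0.57 in the order of the times, and that of all genes -0.04, 0.02 and -0.02. In bulk RNA, fewer cells with a transcript and less of it per cell cannot be told apart.

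**Figure D2:**
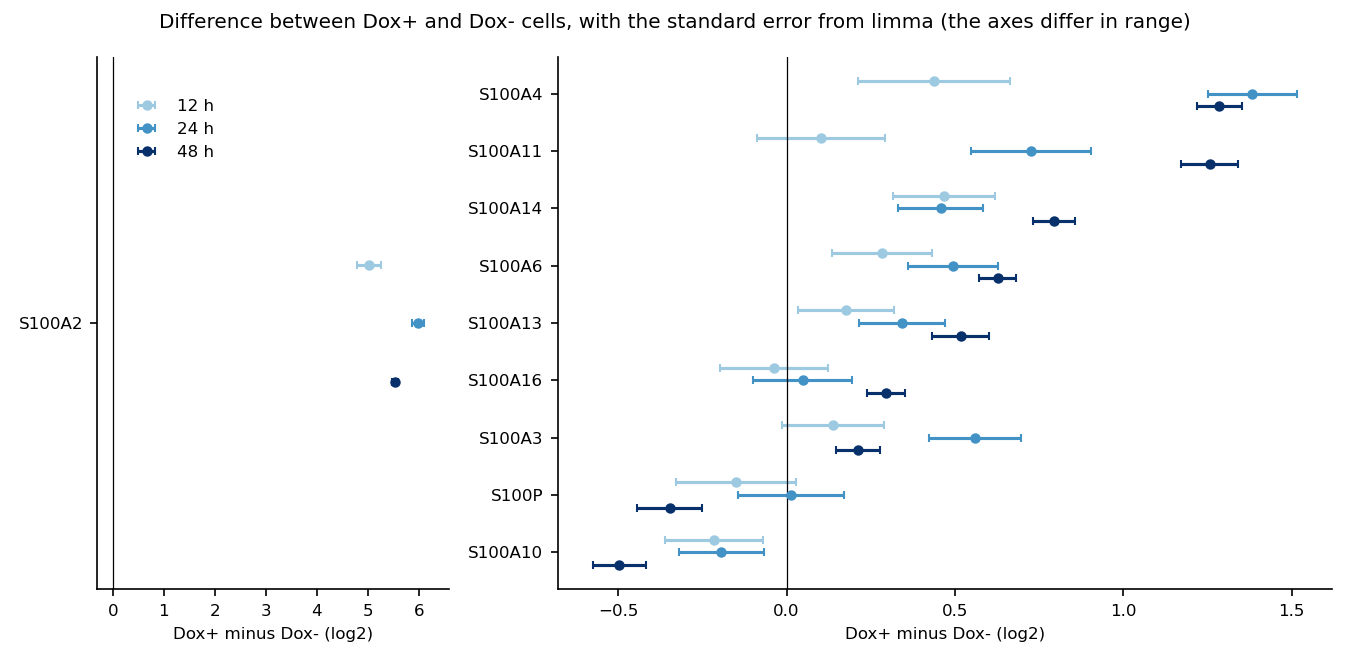
Dox+ minus Dox− difference (log2, horizontal axes of unequal range) of the 10 S100 genes at the 3 times, from light (12 h) to dark (48 h), with the standard error from limma as bars. S100A2 lies between 5.02 and 5.98, and the other 9 genes lie between -0.50 and 1.38.

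The change with time inside each treatment was not itself used to choose the genes and was tested, with 48 h set against 12 h. It shares its arrays with the treatment differences known at the choice, so its p-values are not independent of that choice. In Dox+ cells S100A4 rose by 0.72 ± 0.13 (SE, limma adjusted p = 0.010, 0.00167 to 0.0554 over the alternatives) and S100A2 by 0.60 ± 0.09 (adjusted p = 0.00339, 9.56e-05 to 0.0309). S100P fell by 0.64 ± 0.11 (adjusted p = 0.00565, 0.00527 to 0.0332) and S100A10 by 0.40 ± 0.10 (adjusted p = 0.0403, 0.011 to 0.151). The call of S100A10 was lost when any 1 of the 7 Dox+ arrays was left out (adjusted p = 0.0524 to 0.151), and that of S100A4 without replicate 3 of 48 h (0.67, adjusted p = 0.0554). The 2 members called higher and 2 called lower stand beside 5.64% and 3.15% of all genes.

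The other 6 members did not pass in Dox+ cells. S100A11 differed by 0.45 ± 0.15 (adjusted p = 0.0916), and passed without replicate 1 of 12 h (0.69, adjusted p = 0.0246), whereas it was 0.21 without replicate 2 (adjusted p = 0.353), the ends of the range over the alternatives. S100A6 and S100A14 each differed by 0.26 (adjusted p = 0.108 and 0.122) and passed with the trend and robust options of eBayes (0.0108 and 0.0374), S100A13 by 0.22 (0.214), S100A3 by -0.07 (0.71) and S100A16 by -0.11 (0.595). For S100A16 the sign turned without replicate 1 of 12 h (0.03).

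In Dox− cells the levels of the members at 48 h were mostly at or below those at 12 h. S100A11 fell by 0.70 ± 0.14 between 12 h and 48 h (limma adjusted p = 0.015, 0.00485 to 0.0577 over the alternatives) and S100A16 by 0.44 ± 0.11 (adjusted p = 0.0275, 0.0115 to 0.091). These 2 of 10 stand beside 10.6% of all genes called lower. S100A11 lost its call when any of the 3 Dox− arrays of 48 h was left out (adjusted p = 0.0534 to 0.0577), and S100A16 when any array of 12 h or 48 h was (0.0508 to 0.091). No member was called higher, where 9.27% of all genes were, and none was higher at an unadjusted p under 0.05.

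The remaining 8 members did not pass in Dox− cells. S100P differed by -0.44 ± 0.16 (adjusted p = 0.0763, 0.0362 to 0.336 over the alternatives), passing without replicate 2 of 12 h and in the fit of all 14 arrays. S100A2 differed by 0.09 ± 0.18 (adjusted p = 0.724), a value set by the 12 h arrays, since it was 0.46 without replicate 2 (adjusted p = 0.0377) and -0.28 without replicate 1 (adjusted p = 0.101), in a range of 0.0377 to 0.862 over the alternatives. S100A4 differed by -0.13 (adjusted p = 0.508, 0.0467 to 0.691 over the alternatives), with -0.38 (adjusted p = 0.0467) without replicate 1 of 12 h and 0.11 without replicate 2. S100A3, S100A6, S100A10, S100A13 and S100A14 lay between -0.15 and -0.07, and S100A14 turned to 0.03 without replicate 1 of 12 h.

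The time changes in Dox+ cells were not tested against those in Dox− cells, so a call in one treatment alone does not show that the treatments differed in it. The time changes share both their 12 h and their 48 h arrays with the differences between treatments that were known at the choice. They are not independent of those differences. Time, and anything handled together with time such as culture density, cannot be told apart.

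**Figure D3:**
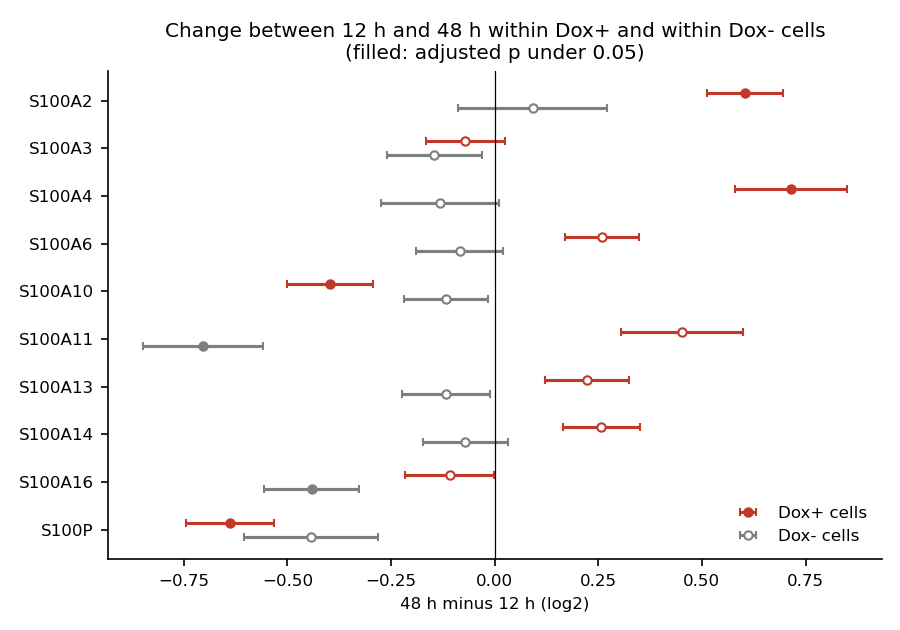
Change from 12 h to 48 h (48 h minus 12 h, log2) of the 10 S100 genes inside Dox+ cells (red) and inside Dox− cells (grey), with the standard error from limma, filled where the adjusted p was under 0.05. S100A4 and S100A2 rose and S100P and S100A10 fell in Dox+ cells, and S100A11 and S100A16 fell in Dox− cells.

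The genes most like a member in their 3 differences were found by the Euclidean distance over the 3 times, as a description. For S100A2 no gene came close. The nearest were AXL, a receptor tyrosine kinase, with differences of 3.41, 4.15 and 4.56 and a distance of 2.62, CEL, a bile-salt dependent lipase, at 2.87, and CSTA, the protease inhibitor cystatin A, at 3.67. S100A4 was nearest to EPN3, an epsin of the endocytic machinery (0.30, 1.31 and 1.36, distance 0.174), followed by the calcium-binding protein gene CAPS (0.175) and the transcription factor gene MAF (0.183). S100A11 was nearest to the complement protease gene C1R (0.19, 0.70 and 1.22, distance 0.101), then to EDAR, the receptor of ectodysplasin (0.119), and MPC1, a subunit of the mitochondrial pyruvate carrier (0.139).

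Of the 11 other S100 genes listed, 10 were measured, and limma called 0 at any of the 3 times. At an unadjusted p under 0.05, 1 was higher after 12 h, 2 after 24 h and 0 after 48 h, and 0 were lower. At 48 h their differences ran from -0.13 for S100A9 to 0.19 for S100A5, and the Dox+ and Dox− arrays overlapped in all 10. Their median difference at 48 h was -0.04, beside -0.02 over all genes. S100A8 and S100A9, which together form calprotectin, differed by 0.85 (adjusted p = 0.0865) and 0.57 (adjusted p = 0.121) at 24 h, and by -0.05 and -0.13 at 48 h. S100A9 rose between 12 h and 48 h inside both treatments, by 0.51 in Dox+ cells (limma adjusted p = 0.0308) and by 0.70 in Dox− cells (adjusted p = 0.0213). The S100-fused genes encode epidermal proteins with an S100 domain at one end, such as filaggrin. The 5 of 7 that were measured (FLG, FLG2, TCHH, RPTN and CRNN) had 0 calls by limma at any of the 3 times, and 0 at an unadjusted p under 0.05. By mean level, 2 of the 10 other S100 genes and 0 of these 5 reached the median gene (6.492), against 8 of the 10 members. The part of low signal in the lack of calls was not tested.

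On chromosome 1 the S100 genes stand in 2 blocks at the ends of the epidermal gene cluster. S100A10 and S100A11 are neighbours at one end, and S100A6, S100A5, S100A4, S100A3, S100A2, S100A16, S100A14 and S100A13 follow each other at the other end in the RefSeq order, with S100A5 the only one among these 8 that is no member. S100A5 differed by 0.19 at 48 h (limma adjusted p = 0.369) beside its neighbours S100A6 at 0.63 and S100A4 at 1.28. Between S100A10 and S100A1 lay 63 protein-coding genes, of which 16 were S100 genes, 9 of them members, and 24 of the other 47 were measured. At 48 h limma called 1 of these 24 higher, LCE1E of the late cornified envelope (0.31, adjusted p = 0.0121), and 0 lower, while 3 were higher and 0 lower at an unadjusted p under 0.05. LCE1B at 0.17 (adjusted p = 0.137), SPRR2G at 0.16 (0.106) and SPRR1A at -0.16 (0.188), further genes of the cornified envelope, had the next largest absolute differences. At 12 h and 24 h limma called 0 of the 24, with 2 lower at 12 h and 0 at 24 h at an unadjusted p under 0.05. The background at 48 h was 11.3% of all genes higher and 12.9% lower. Of the 24, only LCE1E (mean 6.985 over the arrays) and SPRR4 (7.346) exceeded the mean of the median gene, 6.492, and the others were dimmer. The part of this low signal in the lack of calls was not tested.

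**Figure D4:**
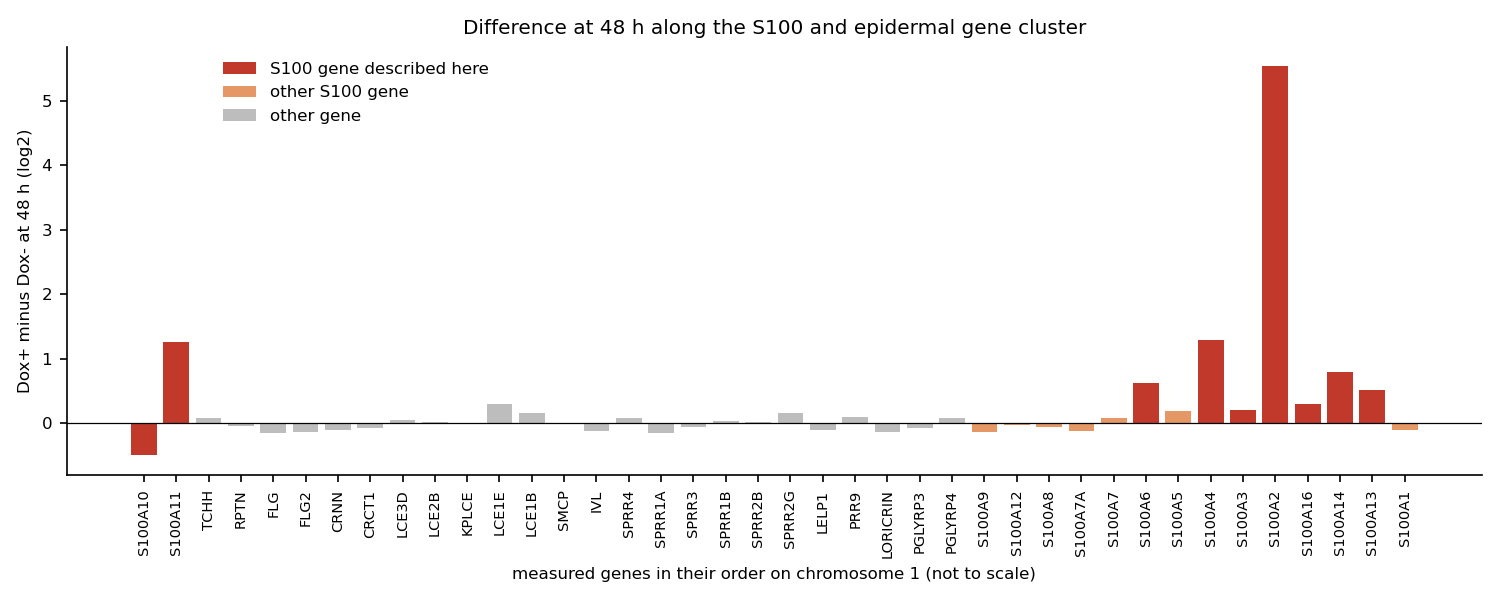
Dox+ minus Dox− difference at 48 h (log2, vertical axis) of the measured protein-coding genes from S100A10 to S100A1 in their order on chromosome 1, not to scale, with the S100 genes described here in red, other S100 genes in orange and other genes in grey. The bar of S100A2 reaches 5.53, and the bars of the genes that are not S100 genes stay between -0.16 and 0.31.

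The lists of partners and receptors were written with earlier results of these data known, so their p-values are no independent evidence. Among the annexin and cytoskeletal partners of S100 proteins, 12 of 13 were measured. At 48 h limma called 4 of them higher and 0 lower, beside 11.3% and 12.9% of all genes. At an unadjusted p under 0.05, 5 were higher and 0 lower. ANXA1, the annexin bound by S100A11, rose to 8.47 ± 0.16 in Dox+ cells against 6.45 ± 0.19 in Dox− cells (SD, n = 3 each, difference 2.02, limma adjusted p = 2.78e-06), and differed by -0.01 at 12 h and 0.41 at 24 h without passing. ANXA2, the partner of S100A10, rose by 0.44 (adjusted p = 9.67e-04), opposite in sign to S100A10. IQGAP1, a scaffold bound by S100P, rose by 0.30 (adjusted p = 0.0191) and AHNAK, a very large protein held by the annexin A2 complex, by 0.28 (adjusted p = 0.0178), while the 4 other AHNAK and 2 other IQGAP1 probe sets, all dimmer, did not pass. MYH9, the myosin heavy chain bound by S100A4, differed by 0.20 (adjusted p = 0.236). At 12 h and 24 h limma called 0 of the 12, with 2 higher at each time and 2 and 0 lower at an unadjusted p under 0.05.

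Of the 10 other binding partners, 2 were called higher and 2 lower at 48 h, not far from the 11.3% and 12.9% of all genes. MDM2, a ubiquitin ligase, rose to 12.78 ± 0.12 in Dox+ cells against 11.03 ± 0.10 in Dox− cells (SD, n = 3 each, difference 1.75, limma adjusted p = 9.81e-07), and also passed at 12 h (1.55, adjusted p = 0.0321) and by 24 h (1.79, where the adjusted p was 1.93e-04). SYT1, the synaptotagmin that is released with S100A13 and FGF1, rose by 0.99 at 48 h (adjusted p = 5.96e-06) and by 1.00 at 24 h (adjusted p = 0.00536), and FGF1 itself differed by 0.05 (adjusted p = 0.772). STIP1, a co-chaperone, fell by 0.35 (adjusted p = 0.00354) and CACYBP, the calcyclin-binding protein that S100A6 holds, by 0.27 (adjusted p = 0.00915). The second STIP1 probe set differed by -0.31 without passing, and 2 of the 3 further CACYBP probe sets also passed, at -0.29 and -0.22. At 24 h METAP2, a methionine aminopeptidase bound by S100A4, was the 1 partner called lower (-0.58, adjusted p = 0.0382).

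Among 5 receptors of secreted S100 proteins, CD36, a fatty acid receptor that also takes up S100A8 and S100A9 complexes, rose to 9.46 ± 0.04 in Dox+ cells against 7.31 ± 0.06 in Dox− cells at 48 h (SD, n = 3 each, difference 2.15, limma adjusted p = 6.24e-08). It also passed at 12 h (1.42, adjusted p = 0.0135) and by 24 h (2.22, where the adjusted p was 3.96e-04). BSG, or basigin, a receptor of S100A9, rose by 0.55 at 48 h (adjusted p = 2.58e-04) and differed by -0.87 at 12 h (adjusted p = 0.0799). AGER, which encodes RAGE, TLR4 and NPTN differed by -0.06, 0.03 and 0.02 at 48 h and did not pass. The 2 calls at 12 h, MDM2 and CD36, were lost when either Dox− array of 12 h was left out, and the 1 gene called lower at 24 h was lost without replicate 1 or 2 of Dox+ cells or replicate 2 of Dox− cells.

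**Figure D5:**
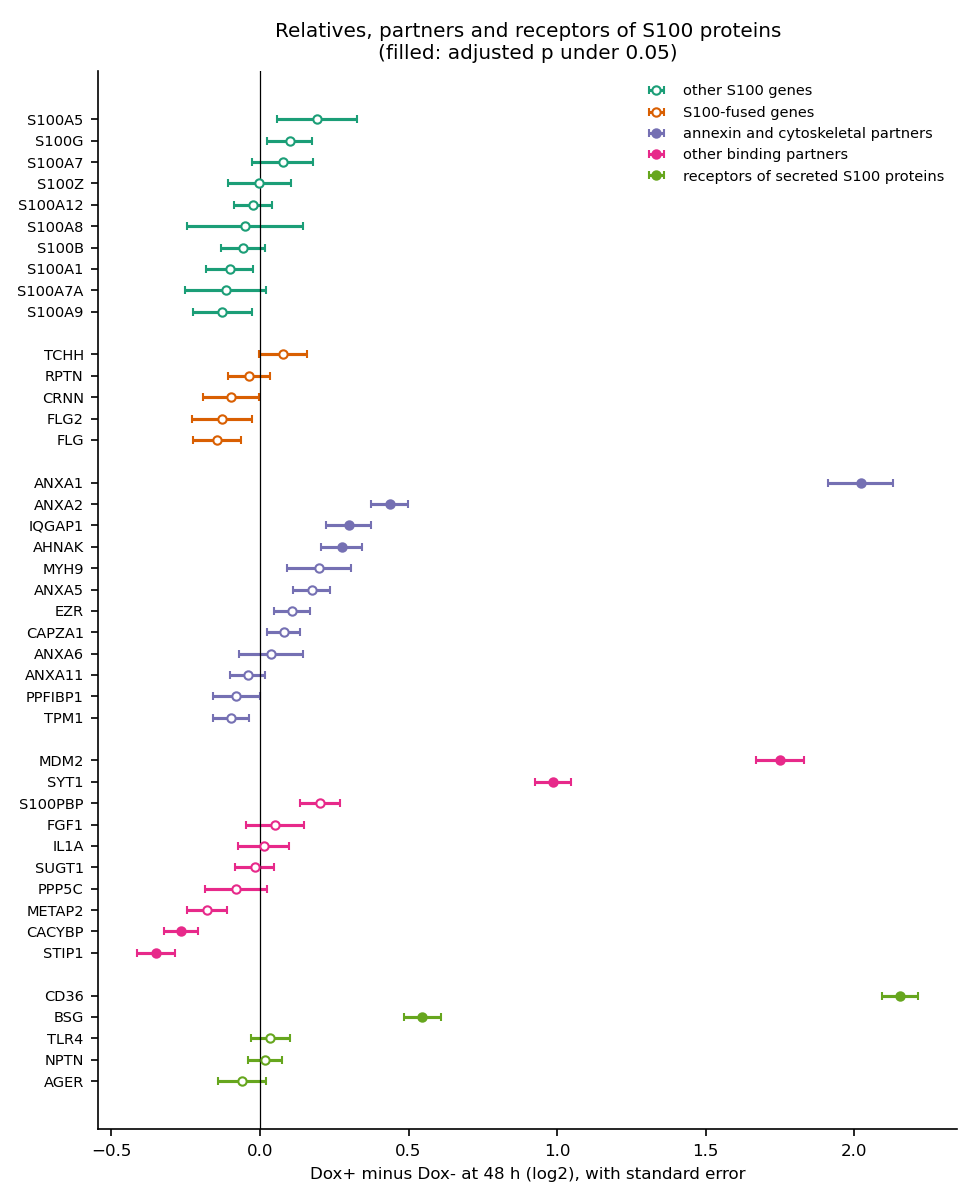
Dox+ minus Dox− difference at 48 h (log2) of the other S100 genes, the S100-fused genes, the binding partners and the receptors, with the standard error from limma, filled where the adjusted p was under 0.05. CD36 at 2.15, ANXA1 at 2.02 and MDM2 at 1.75 lie farthest to the right, and STIP1 at -0.35 farthest to the left.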

How the data were processed

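Gene expression was measured on 14 Affymetrix U133 Plus 2.0 arrays, 1 per culture of Hep3BTAp73β cells. The authors deposited log2 values made by RMA, which corrects background, normalizes by quantiles and summarizes the probes of a probe set. The submitters' processing notes give R 3.5.1. BRB-ArrayTools is named in the methods, where outlier arrays are said to have been excluded. The deposited log2 values were used without a filter or further normalization, and 0 columns were left out. Array medians ran from 5.153 to 5.284. Of 54675 probe sets, 62 were controls, 41091 named 1 gene, 1801 several and 11721 none, and 41037 were matched to current symbols by Entrez identifier. Each of 19775 genes was read from its brightest probe set, by the mean of all 14 arrays. The 10 members had 13 probe sets, and 8 of them would pass a filter at the mean of the median gene (6.492).

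Treatments were compared within each time on the arrays of that time, and 48 h with 12 h on the 7 arrays of each treatment. The test (two-sided) was eBayes after lmFit in limma 3.58.1 (R 4.3.3), with Benjamini-Hochberg adjustment over all genes and a threshold of 0.05. The labels call the samples biological replicates. Further tools were Python 3.11.15 with pandas 2.3.3, matplotlib 3.10.9 and numpy 2.4.6, and the R package data.table (version 1.17.8). The test was also run on data simulated with independent normal noise for each gene. That simulation holds no effect shared by the genes of an array, so nothing is read from it about the deposited data. The labels give DMEM as the medium, and the methods another one. Alternatives were 1 fit of all 14 arrays, quantile normalization of the deposited values, dim genes left out, choosing probe sets by interquartile range, testing all probe sets singly, omitting those of the _x_at type, the trend and robust options, a block for the replicate number, and each array left out in turn.

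Members and lists were chosen with earlier results of these data known. Named genes were the 10 members, from each list the genes past the threshold at 48 h (or, where more than 4 passed, the 4 with the largest difference), TP73, the 3 nearest genes of each member with a difference of at least 1 at 48 h, and the 4 cluster genes with the largest difference. Markers, S100A5, S100A8, S100A9, FGF1, METAP2, MYH9, AGER, TLR4 and NPTN were named after their values were seen. Not analysed here, for want of a listed probe set of their own, were S100A7L2, HRNR, TCHHL1, TPM3, HNF4A and TP63. Promoters are from RefSeq, in which all 10 members matched by symbol. The number of arrays limits the precision.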

Additional observations from a re-analysis of the deposited data

Results flagged for a closer look

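In 8 genes among the relatives, partners and receptors of S100 proteins, all Dox+ arrays lay on one side of all Dox− arrays at one time and on the other side at another time. The difference between the times was not tested in any of them, and the values are log2 differences, Dox+ minus Dox−. BSG was at -0.87 at 12 h and 0.55 at 48 h. ANXA5, an annexin, was at -0.43 at 12 h and -0.29 at 24 h, and at 0.17 at 48 h. ANXA6 was at -0.38 at 12 h and 0.23 at 24 h, and PPFIBP1, which encodes liprin beta 1, a partner of S100A4, at -0.44 and 0.29. S100A5 was at -0.16 at 12 h and 0.32 at 24 h, RPTN at -0.11 and 0.20, and FGF1 at 0.31 and -0.0922. TPM1, a tropomyosin, was at 0.23 at 24 h and -0.10 at 48 h. With 2 arrays a group at 12 h, 19.3% of all genes had Dox+ arrays wholly above and 27.6% wholly below. These shares were 26.6% and 23.7% at 24 h, and 17.4% and 21.9% at 48 h. The share of all genes separated in opposite directions at different times was not counted, so nothing is read from the count of 8.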

How the results depend on the processing

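The limits are few arrays, 2 a group at 12 h and 24 h, and signals without a measured background. Where leaving out an array leaves a group with 1 sample, that sample is taken to vary like the others. Only quantile normalization and choosing probe sets by interquartile range could move a member's treatment difference by more than the spread between replicates. The other fits leave it unchanged by construction, and leaving out 1 array cannot shift it that far, so the next tally says little of stability. Over the alternatives, 375 of the members' treatment differences moved by less than the spread between replicates and 9 by more. These were S100A6 by largest interquartile range (1.19 at 12 h, 1.29 at 48 h) and, after quantile normalization, S100A2 (6.06), S100A4 (1.50), S100A10 (-0.11), S100A13 (0.46) and S100A14 (0.54) at 24 h and S100A6 (0.66) and S100A16 (0.33) at 48 h. With an array left out, the difference took both signs for S100A11 at 12 h (-0.135 to 0.338), S100A16 at 12 h (-0.18 to 0.104) and 24 h (-0.105 to 0.201) and S100P at 12 h (-0.362 to 0.0595) and 24 h (-0.157 to 0.187), and moved by over 1.5 times for S100A3 (0.0371 to 0.238) and S100A4 (0.193 to 0.683) at 12 h and S100A11 at 24 h (0.469 to 0.982). Of the time changes 265 kept their direction and side of the threshold, 7 came to pass, 18 no longer passed and 6 turned their sign. The turned values, besides those with an array left out (ranges -0.277 to 0.460 for S100A2, -0.377 to 0.113 for S100A4 and -0.172 to 0.0312 for S100A14 in Dox− cells, and -0.251 to 0.0331 for S100A16 in Dox+ cells), were S100A2 after quantile normalization (-0.0839) and S100A6 by largest interquartile range (0.26), both in Dox− cells. The causes were not tested.

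At 12 h, 128 genes were called higher and 4 lower. All 14 arrays in 1 fit gave 1040 and 643, the largest interquartile range 83 higher, every probe set 65 higher, quantile normalization 8 lower, trend and robust options 9 lower, and left-out arrays 4 to 153 higher and 0 to 74 lower. Among the listed genes 2 were called higher and 0 lower, with 6 higher in 1 fit and 1 after quantile normalization.

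At 24 h, 596 were called higher and 556 lower. One fit gave 1106 and 1202, trend and robust options 946 and 1274, quantile normalization 345 lower, dim genes left out 969 lower, the largest interquartile range 1046 lower, every probe set 1294 lower, and left-out arrays 168 to 375 lower. The 3 listed genes called higher became 5 in 1 fit and 3 to 5 with an array left out, and the 1 called lower 0 after quantile normalization, 2 by largest interquartile range, 3 with every probe set and 0 to 1 with an array left out.

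At 48 h, 2229 and 2549 became 1437 and 1361 in 1 fit, and every probe set gave 3365 higher. The 8 listed genes called higher became 5 in 1 fit, and the 2 called lower 1 in 1 fit and 1 by largest interquartile range.

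From 12 h to 48 h in Dox− cells, 1834 and 2093 became 293 to 2623 and 169 to 2555 with an array left out. Quantile normalization gave 873 higher, every probe set 3866 higher and dim genes left out 763 lower. Members called lower were 2, and 0 to 2 with an array left out, and members called higher 0, and 0 to 1. In Dox+ cells, 1115 and 622 became 541 to 1381 and 234 to 1117 with an array left out. The largest interquartile range gave 1904 higher, every probe set 2823 higher and 953 lower, and quantile normalization 1013 lower. The 2 members called higher became 4 with trend and robust options and 1 to 3 with an array left out, and the 2 called lower 1 with dim genes left out and 1 with any array left out.

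To look for pairing, the group mean of each gene was taken off its values, leaving a deviation on each array. These deviations, not the levels, were correlated over all genes between Dox+ and Dox− arrays of the same time. For same-numbered replicates the correlation was 0.255 at 12 h, -0.11 at 24 h, and 0.109, 0.0892 and 0.102 at 48 h. For differently numbered ones it was -0.255 at 12 h, 0.11 at 24 h, and -0.0764 to -0.0163 at 48 h. With 2 arrays a group, those at 12 h and 24 h only repeat the same-numbered values with the sign turned. Whether replicates of the same number shared a culture or a batch cannot be told from these values. With the replicate number as a block, 385 genes were called higher and 84 lower at 12 h, with 5 listed genes higher and 1 lower. Over time the block gave 677 and 511 calls in Dox− and 521 and 216 in Dox+ cells, with 1 member lower in each, the calls of S100A16 (adjusted p = 0.091) and S100A10 (adjusted p = 0.0776) being lost. At 24 h the crossed pairing, added after seeing the data, gave 778 higher and 815 lower.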
